A study of Homo sapiens with 4 samples.

Results

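The 41 genes described here carry symbols that begin with NDUF and belong to respiratory complex I, the mitochondrial NADH:ubiquinone oxidoreductase. Of them, 33 encode subunits of the enzyme and 8 encode assembly factors of the NDUFAF series. They were chosen by name alone, as every probe set whose single gene symbol in the platform annotation begins with NDUF. Pseudogenes and non-coding RNA loci, such as NDUFV1-DT, were left out. This gave 78 of the 54675 probe sets on the array and 41 of the 19775 genes that have a probe set with 1 symbol. Among the members, 17 genes were read by 1 probe set and 24 by several.

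RNA came from stably transduced, puromycin-selected cultures of the human lung adenocarcinoma line CL1-0 and of CL1-5, a line derived from it and known for higher invasiveness. The CL1-0 cultures held a control vector or a vector for AK4, an adenylate kinase of mitochondria that balances adenine nucleotides. In CL1-5 the vectors expressed AK4 shRNA or non-silencing shRNA. All 4 groups thus hold an integrated vector, and no untransduced culture and no second shRNA sequence was analysed here. Whether the cultures were pools or clones is not given in the sources used here. Each group was 1 Affymetrix HG-U133 Plus 2.0 array, so replicate errors and p-values cannot be given, and a ratio describes 2 arrays. As a guide to scatter, the log2 ratios between 2 arrays were compared among probe sets that read 1 gene. Their pooled SD was 0.41 (AK4 vector over control vector), 0.22 (AK4 shRNA over non-silencing shRNA) and 0.85 (CL1-5 over CL1-0 controls). Over the members with several probe sets it was 0.44, 0.21 and 0.73. This SD is no replicate error.

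Complex I takes electrons from NADH, passes them to ubiquinone and pumps protons across the inner mitochondrial membrane. An N module in the peripheral arm oxidises NADH, a Q module below it reduces ubiquinone, and a membrane arm with a proximal and a distal part moves the protons. Some of the membrane subunits are encoded in mitochondrial DNA, the rest of the enzyme in the nucleus, and assembly factors join the modules without staying in the finished complex.

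After scaling, all 41 genes lay above a floor of 6.94 signal units on all 4 arrays, with signals from 55.5 to 3883. The floor is the 40th percentile over the 4 scaled arrays together, and 56.6% to 63.4% of the probe sets of an array lay above it. Of the 78 member probe sets, 63 were above the floor on all 4 arrays, 8 on 1 to 3 arrays and 7 on none. A gene was read from its brightest probe set, and "called" below means a difference of at least 2-fold. As deposited, the CL1-0 arrays had medians of 6.07 and 6.23 and the CL1-5 arrays 15.6 and 15.3. The 3′ to 5′ signal ratio of the ACTB control probe sets was 6.04 and 6.54 in CL1-0 but 1.34 and 1.61 in CL1-5. For GAPDH it was 1.25 with control vector and 1.54 with AK4 vector in CL1-0, and 1.04 and 1.07 in CL1-5. The BioB control probe sets had mean scaled signals of 783 with control vector and 307 with AK4 vector, and of 106 and 99.1 in CL1-5. What these differences do to the ratios was not tested. The 4 AK4 probe sets were lower with AK4 shRNA by log2 ratios of -0.88 to -1.25. On the array labelled AK4 vector they read -0.25 to -0.05, none above 0, so each direction drawn from that array rests on its label. The labels call the cells type II alveolar cells. Of 8 alveolar type II markers on the array, 7 and 6 were above the floor in CL1-0 and 5 on each CL1-5 array. Their summed signals were 398, 337, 122 and 118, while SLC34A2 was at the floor on all 4 arrays. LAMP3 gave 210 and 160 of the CL1-0 sums and was at the floor in CL1-5. Leukocyte markers summed to between 7.01 and 39.5 and fibroblast markers to between 68.1 and 107, with PTPRC, COL3A1, LUM and PDGFRA at the floor throughout. Epithelial markers summed to 24.1 and 40.2 in CL1-0 and to 1988 and 1749 in CL1-5, where KRT18 alone read 1681 and 1485. EPCAM and CDH1 were at the floor on both CL1-5 arrays, and KRT19 was dim there, at 8.63 and 7.02.

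Complex I genes as a group had a higher signal on the array labelled AK4 vector than on the control vector array in CL1-0. Their median log2 ratio was 0.26, against 0.05 over all 14677 measured genes, and the ratios ran from -0.54 to 1.13. The ratio was above 0 for 33 of the 41 members, or 80.5%, against 56.1% of all measured genes. Among the 5399 genes in the members' range of signal that share was 51.6% and the median 0.02. Only 2 members were called higher and 0 lower, against 3.22% of all measured genes higher and 1.17% lower. The shift was thus made of small ratios, of which 24 were nearer to 0 than the scatter of 0.41 between probe sets of a gene. The 5 measured core subunits with nuclear genes were all above 0, with a median of 0.43.

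The Q module stood highest, with a median of 0.81 and all 4 of its measured members above 0. Both called genes belong to it. NDUFA5, an accessory subunit of this module, had a signal of 417 with control vector and 912 with AK4 vector in CL1-0, and of 356 for non-silencing and 421 for AK4 shRNA in CL1-5. The array labelled AK4 vector was apart from the other 3 arrays, and the log2 ratio of 1.13 was the only one among the members that stayed at least 2-fold under all 5 scalings tried (trimmed mean, median, quantile, loess and values as deposited), from 1.06 to 1.15. Averaged with its second probe set, which lay below the floor on every array, it was 0.56. NDUFS7, a core subunit with an iron-sulfur cluster next to the quinone site, read 291 with control vector, 598 with AK4 vector, 305 for non-silencing and 240 for AK4 shRNA. Its log2 ratio in CL1-0 was 1.04, but its other probe set, dim at 10.1 and 7.85 in CL1-0, gave -0.36. The remaining measured Q module genes, NDUFA9 and NDUFS3, had log2 ratios of 0.58 and 0.43.

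RefSeq promoters were at hand for 38 of the 41 members, as windows from 250 bases before to 50 bases after a start on GRCh38.p14. They were searched on both strands for 5 motifs of factors linked to mitochondrial genes. The NRF1 motif GCATGCGC occurred in 8 of the 38 members, or 21.1%, against 775 of 15843 protein-coding genes, or 4.89%. Counted by window, since some genes have several starts, the shares were 16.0% of 50 windows and 3.74% of 22199. The motif and its reverse complement GCGCATGC can overlap, shifted by a few bases. Both strands then match close together, as in NDUFA8, NDUFAF5 and NDUFB4. Windows around it are shown for the 2 called genes and for NDUFB4 and NDUFA8, a membrane-arm gene on either side of 0 in CL1-0, with the motif in capitals:
NDUFA5, chr7:123557954-123557991, minus strand, motif on the opposite strand: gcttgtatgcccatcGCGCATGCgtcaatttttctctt
NDUFS7, chr19:1383819-1383856, plus strand: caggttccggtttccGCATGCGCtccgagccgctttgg
NDUFB4, chr3:120596164-120596201, plus strand: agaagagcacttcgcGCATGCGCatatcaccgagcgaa
NDUFA8, chr9:122159759-122159796, minus strand: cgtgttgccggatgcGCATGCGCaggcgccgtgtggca

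NDUFA5 spans positions 123536997 to 123601651 of chromosome 7, and its window belongs to 1 of its 3 RefSeq starts, an inner one. NDUFS7 spans 1383907 to 1395584 of chromosome 19. In NDUFS7 the motif began 73 bases before the start, in NDUFB4 157 bases before and in NDUFA8 2 bases before. Members with the NRF1 motif had a median log2 ratio of 0.34 with AK4 vector, from -0.38 in NDUFA8 to 1.13 in NDUFA5, against 0.26 over the 30 without it. With AK4 shRNA the medians were -0.11 and -0.09. The motif was thus present in members at both ends of the vector comparison.

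The YY1 motif AAGATGGCG occurred in 7 of 38 members, or 18.4%, against 508 of 15843 genes, or 3.21%. By window it was in 16.0% against 2.41%. It lay on the gene's own strand and began 10 to 25 bases after the start in every member that held it. Short windows are shown for NDUFS7, which held both motifs, and for a gene of the N module and another of the Q module, with the motif in capitals:
NDUFS7, chr19:1383914-1383942, plus strand: ggccgaggccAAGATGGCGgtgctgtcag
NDUFA7, chr19:8321343-8321371, minus strand: tcgcggacggAAGATGGCGtccgccaccc
NDUFA9, chr12:4649114-4649142, plus strand: attgtgggaaAAGATGGCGgctgccgcac

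Members with the YY1 motif had a median of 0.27 with AK4 vector against 0.20 over the 31 without it, and of -0.19 against -0.10 with AK4 shRNA. All 7 were below 0 in the shRNA comparison, from -0.35 to -0.02, but so were 33 of all 41 members. The ETS motif CCGGAAG was in 18.4% of members and 16.5% of all genes. The SP1 motif GGGGCGGGG was in 18.4% and 26.2%. The ERR motif TCAAGGTCA was in 0 of 38 members and in 0.335% of all genes. These matches describe the sequence, and binding was not measured.

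**Figure D1:**
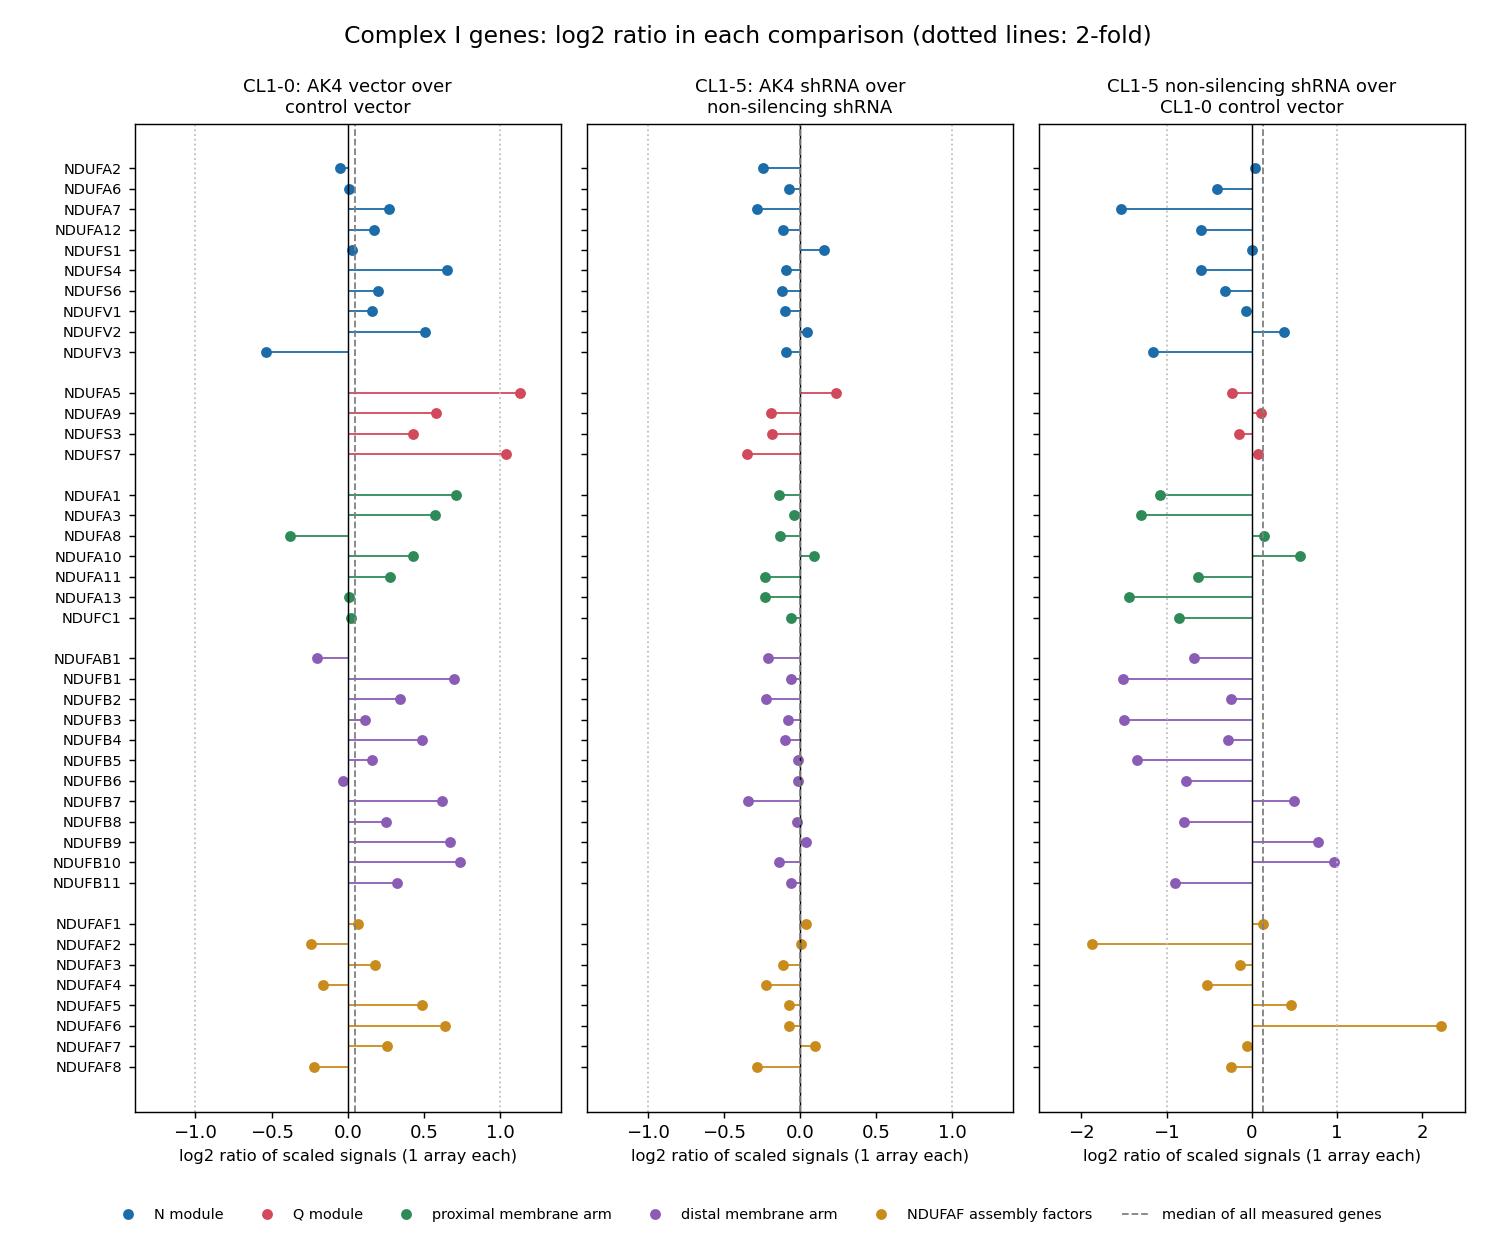
Log2 ratio of the scaled signals of each complex I gene in the 3 comparisons, 1 array on each side, with genes grouped by module; dotted lines mark 2-fold and the dashed line the median of all measured genes. In CL1-0 (left) 33 of 41 points lie right of 0, in CL1-5 with AK4 shRNA (middle) 33 lie left of 0 within 0.35 of it, and between the lines (right, wider axis) the points run from -1.88 to 2.22.

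In the N module, 8 of 10 genes were above 0 with AK4 vector, with a median of 0.17. NDUFV2, an iron-sulfur subunit, read 395 and 562 in CL1-0, a log2 ratio of 0.51. The core subunits that bind the flavin and the further iron-sulfur clusters lay closer to 0, NDUFV1 at 0.16 and NDUFS1 at 0.03. NDUFV3, a small accessory flavoprotein subunit, was the lowest of all 41 members. Its signals were 773 and 531, a log2 ratio of -0.54, while its second and dimmer probe set read 24.7 and 31.6, a ratio of 0.35. NDUFA7 likewise split, at 0.27 for the bright and -0.35 for the dim probe set. NDUFA2 had a ratio of -0.05.

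Subunits of the membrane arm were also above 0 for the most part, 6 of 7 in the proximal arm with a median of 0.28 and 10 of 12 in the distal arm with a median of 0.33. NDUFA1, a small membrane subunit encoded on the X chromosome, read 1262 with control vector, 2061 with AK4 vector, 598 for non-silencing and 542 for AK4 shRNA. Its ratio of 0.71 came from its single probe set. NDUFB10 read 433, 724, 843 and 766 in the same order, and both of its probe sets were higher with AK4 vector, by 0.74 and 0.77. In NDUFB1 the signals were 2397, 3883, 840 and 806, with a ratio of 0.70 that its dim second probe set, at 0.02, did not share. NDUFB9 was at 0.67 and NDUFB7 at 0.62, the latter with a second probe set at -0.25.

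On the lower side, NDUFA8, a proximal-arm subunit, read 549 and 422 in CL1-0, a ratio of -0.38. NDUFAB1, the mitochondrial acyl carrier protein that also serves fatty acid synthesis, read 2402 and 2097, a ratio of -0.20. NDUFC1 and NDUFA13 lay at 0.02 and 0.01, and the sign of both changed with the scaling. A dim probe set of NDUFC1, at 24.2 and 11.8, gave -1.04, the one member probe set called lower. In NDUFB8 the 3 probe sets ran from -0.21 to 0.92 and in NDUFA11 from -0.64 to 0.28.

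Assembly factors had the lowest median of the 5 groups, 0.13, with 5 of 8 above 0. NDUFAF6, a factor needed for an early membrane-arm step, read 55.5 and 86.5 in CL1-0, a ratio of 0.64, but its second probe set gave -0.24 with the AK4 vector array below the floor. NDUFAF7, a methyltransferase, had 3 probe sets all above 0, from 0.26 to 1.12. NDUFAF2, which holds the place of an N module subunit during assembly, was at -0.24, and NDUFAF8 was at -0.22. Of 11 assembly factors without an NDUF name, 6 were above 0 with a median of 0.02, from -0.57 in COA1 to 0.75 in ACAD9.

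**Figure D2:**
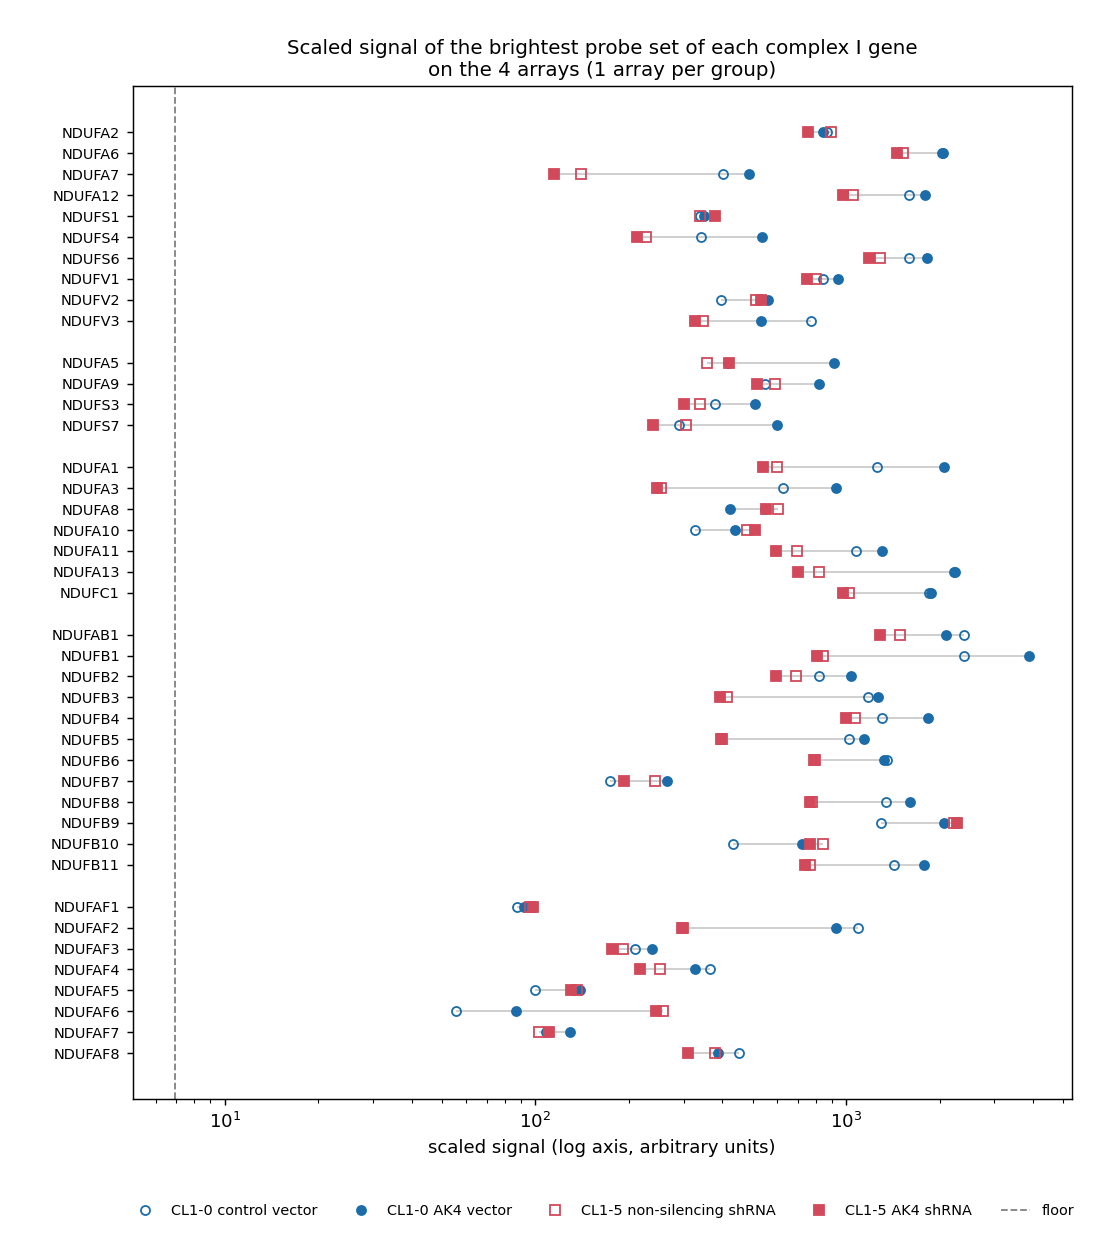
Scaled signal (log axis, arbitrary units) of the brightest probe set of each complex I gene on the 4 arrays, with open symbols for controls, filled ones for AK4 vector or AK4 shRNA, circles for CL1-0 and squares for CL1-5. For 26 genes both circles lie right of both squares, and the squares of most genes nearly coincide.

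In CL1-5 the members differed little between the non-silencing and the AK4 shRNA array, with most of them slightly lower with AK4 shRNA. The median log2 ratio was -0.09 against -0.0014 over all 15314 measured genes, and all ratios lay between -0.35 and 0.24. Above 0 were 8 of 41 members, or 19.5%, against 49.7% of all measured genes and 54.7% of the 5395 genes in the members' range of signal. No member was called, 0 higher against 0.0914% of all measured genes and 0 lower against 0.0131%, which are 14 and 2 genes. Of the 41 ratios 32 were nearer to 0 than the scatter of 0.22 between probe sets of a gene. That scatter refers to single ratios and gives no error for the median of -0.09.

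NDUFS7 had the lowest ratio, -0.35, with signals of 305 and 240. Its dim second probe set read -0.02. NDUFB7, a distal-arm subunit, was at -0.34 with 243 and 193, and its second probe set at -0.14. Then came NDUFA7 and NDUFAF8, at -0.28 each, and NDUFA2 at -0.24. For NDUFA7 both probe sets were below 0, whereas NDUFA2 and NDUFAF8 each had a dim probe set above 0, at 0.26 and 0.23. NDUFA5 was the highest, at 0.24, followed by NDUFS1 at 0.16, NDUFAF7 at 0.10, NDUFA10 at 0.09 and NDUFV2 at 0.05. The 4 other probe sets of NDUFS1 were at or below 0, down to -0.35, with 1 of them below the floor on both arrays.

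By module, the shRNA medians were -0.18 for the 4 Q module genes, -0.13 for the proximal arm, -0.09 for the N module, and -0.07 for both the distal arm and the assembly factors. Of the 12 distal-arm genes 11 were below 0, of the 7 proximal-arm genes 6, of the 10 N module genes 8, of the 4 Q module genes 3 and of the 8 assembly factors 5. Other assembly factors, without an NDUF name, had 9 of 11 below 0 and a median of -0.10. The scatter of 0.22 between probe sets of a gene refers to single ratios and gives no error for these small medians. Differences between the modules were not tested. Over all measured genes, about as many lay below 0 as above it.

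**Figure D3:**
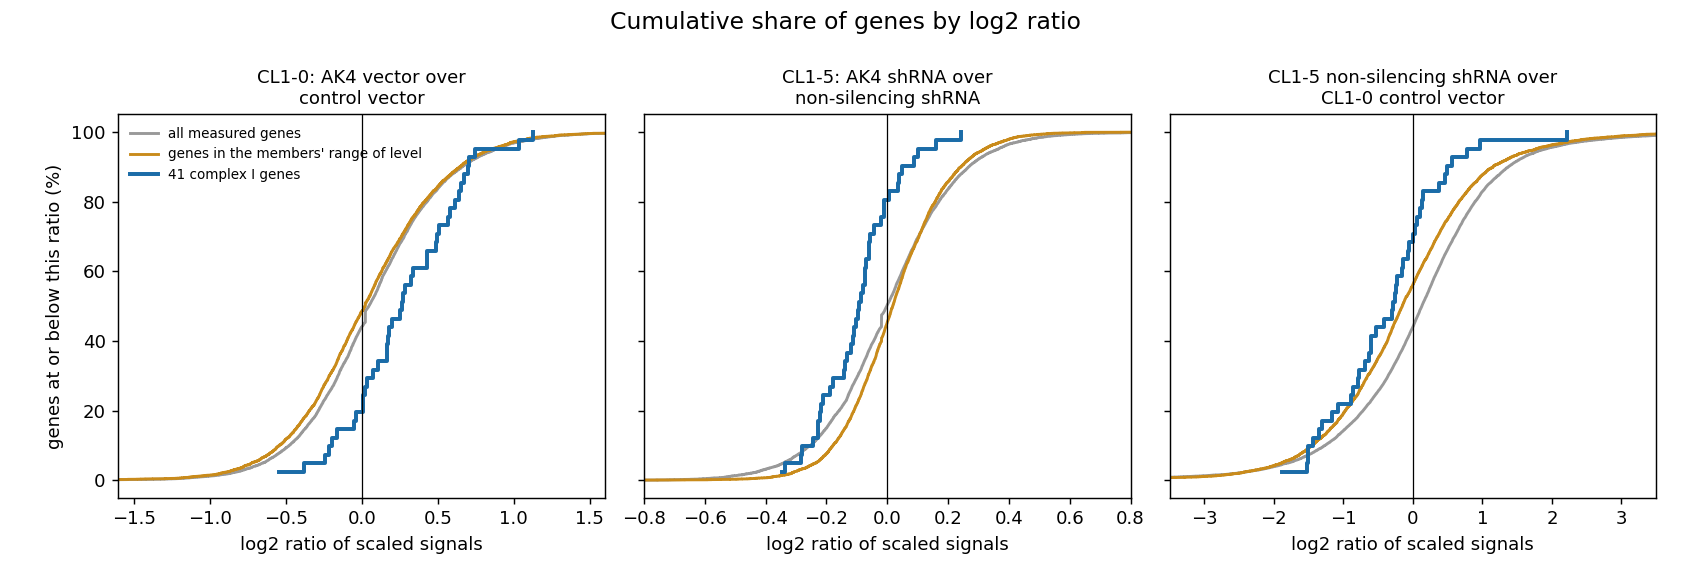
Cumulative share of genes by log2 ratio in each comparison, for the 41 complex I genes (blue), all measured genes (grey) and genes in the members' range of signal (orange). The blue curve lies right of the others over most of the left panel, with medians of 0.26 and 0.05 for members and all genes, and left of them over most of the middle panel, with medians of -0.09 and -0.0014.

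The vector and shRNA comparisons share no array, so their signs can be set side by side for each gene. A signal higher with AK4 vector in CL1-0 and lower with AK4 shRNA in CL1-5 was found for 26 of 41 members, or 63.4%, against 25.3% of the 12797 genes above the floor on all 4 arrays and 20.8% of those in the members' range of signal. With 33 members higher in the first comparison and 33 lower in the second, the product of both shares is 64.8%, or 26.6 members, so the joint count adds nothing to the shifts in each comparison. For all genes that product is 27.2%. The reverse held for 1 member, NDUFAF2 at -0.24 and 0.01, or 2.44% against 20.7%. Of the rest, 7 were higher in both comparisons and 7 lower in both, 17.1% each against 30.9% and 23.2%. No member was called in both comparisons, and the 26 include genes as near to 0 as NDUFA13, at 0.01 and -0.23, and NDUFB5, at 0.16 and -0.01. Judged by the smaller of both changes, NDUFS7 came first with 1.04 and -0.35, then NDUFB7 with 0.62 and -0.34, NDUFA7 with 0.27 and -0.28, NDUFA11 with 0.28 and -0.23, and NDUFB2 with 0.34 and -0.22. In 4 of these genes other probe sets lacked the pattern, being below 0 in CL1-0, at -0.36 for NDUFS7, -0.25 for NDUFB7, -0.35 for NDUFA7 and -0.22 and -0.64 for NDUFA11. The NDUFA11 probe set at -0.22 was as bright as the one used, with signals of 1095 and 938. Both bright NDUFB2 probe sets had the pattern, at 0.34 and 0.45 in CL1-0 and -0.22 and -0.27 in CL1-5, and a dim one was at -0.17 in CL1-0. NDUFA5, highest in CL1-0, was higher in CL1-5 as well. The count ran from 20 to 27 of 41 over the other scalings, floors and the mean of the probe sets, and was 16 of 29 without probe sets that can match several transcripts or genes. This joint count was chosen after the values had been seen.

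**Figure D4:**
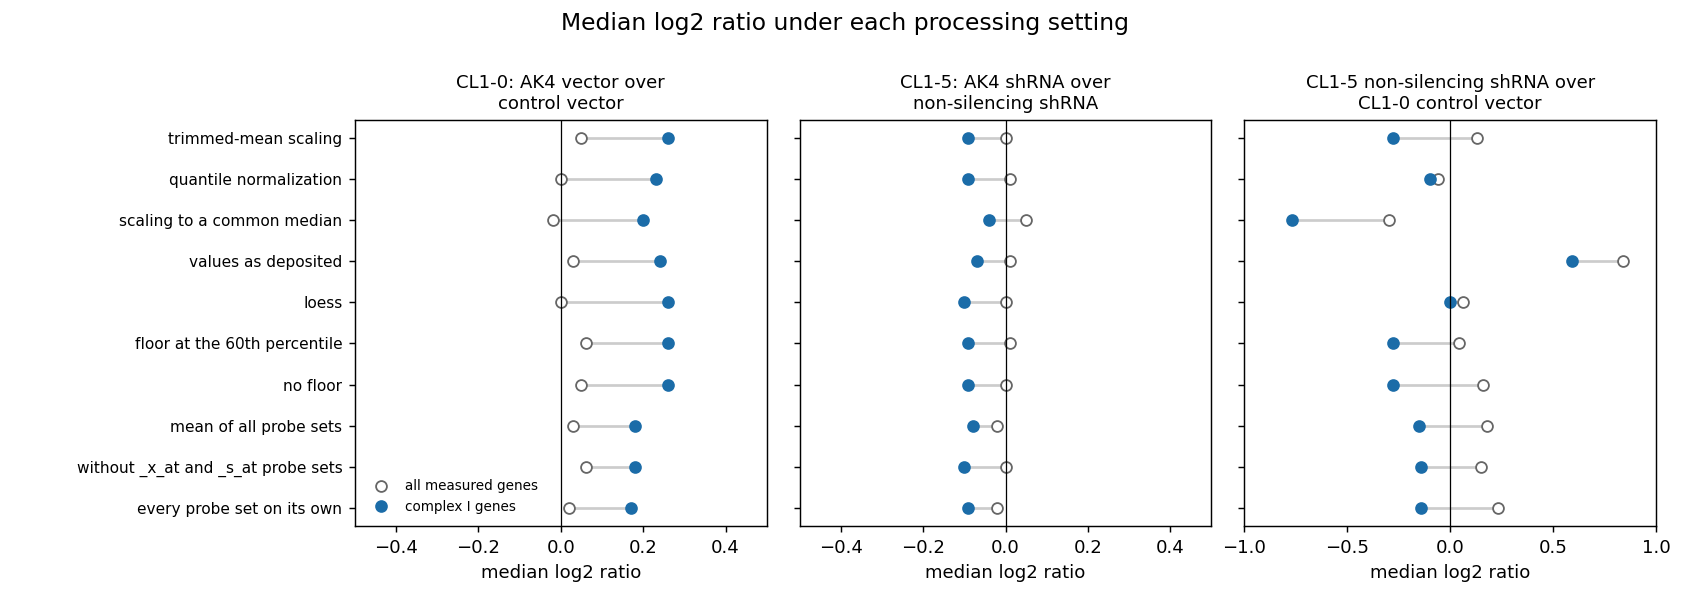
Median log2 ratio of the complex I genes (filled) and of all measured genes (open) in each comparison under the main processing, in the top row, and 9 alternatives. The members lie above all genes in every row of the left panel and below them in every row of the middle and right panels. In the right panel, with its wider axis, some of these gaps are narrow, and the members' median runs from -0.77 to 0.59.

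Between the lines, most complex I genes were dimmer in CL1-5 with non-silencing shRNA than in CL1-0 with control vector after scaling, with a median of -0.28 against 0.13 over all 15969 measured genes. That direction depends on the scaling, since the members' median was 0.59 with the values as deposited, -0.10 after quantile normalization and -0.00 after loess. The median of all genes was then 0.84, -0.06 and 0.06, so relative to all genes the members were lower by 0.25, 0.04 and 0.07. Under the main scaling 12 members, or 29.3%, were above 0 against 56.0% of all measured genes. Called lower were 9 members against 14.2% of all measured genes, and called higher was 1 against 17.1%. With the values as deposited these counts were 1 and 9. Of the 41 ratios 28 were nearer to 0 than the scatter of 0.85 between probe sets of a gene. In the members' range of signal 19.1% of genes were called lower, 12.4% higher and 43.9% were above 0, with a median of -0.15. Beside this, the 3′ to 5′ ratio of ACTB and the deposited medians differed between the lines as given above, and their part in the result was not tested. This comparison shares an array with each of the others.

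A few members kept their direction under all 5 scalings. These were NDUFAF6, NDUFB10, NDUFB9 and NDUFA10 on the higher side in CL1-5, and NDUFA1, NDUFA3, NDUFA7, NDUFA13, NDUFB1, NDUFB3, NDUFB5, NDUFB11, NDUFV3 and NDUFAF2 on the lower side. The other 27 changed sign with the scaling. NDUFAF6 read 55.5 and 86.5 in CL1-0 and 258 and 245 in CL1-5, so both CL1-5 arrays were above both CL1-0 arrays. Its log2 ratio between the control arrays was 2.22, from 1.73 to 3.09 over the scalings, and 1.74 for its second probe set. NDUFAF2 read 1096 and 927 in CL1-0 and 297 and 298 in CL1-5. Its ratio of -1.88, from -2.37 to -1.01, came from its single probe set. These were the only members at least 2-fold different under every scaling, and both are assembly factors.

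The lower side held subunits of both arms of the enzyme. NDUFA7 of the N module, with 403 and 487 in CL1-0 and 140 and 115 in CL1-5, had a ratio of -1.53. A dimmer second probe set of NDUFA7 gave -0.47. In the distal arm NDUFB3 read 1177 and 1269 against 415 and 393, a ratio of -1.50, and NDUFB5 read 1022 and 1145 against 400 and 397, a ratio of -1.35. In the proximal arm NDUFA13, which also carries the name GRIM-19 from its role in cell death, read 2224 and 2237 against 820 and 701, a ratio of -1.44. NDUFA3 was at -1.30 and NDUFA1 at -1.08. For NDUFB1, at -1.51, and NDUFV3, at -1.16, the second, dim probe set went the other way, by 0.28 and 0.99. On the higher side, NDUFB10 read 843 and 766 in CL1-5 against 433 and 724 in CL1-0, with ratios of 0.96 and 1.21 for its probe sets. NDUFB9 was at 0.78 and NDUFA10 at 0.56. The core subunits NDUFV1 and NDUFS1 lay at -0.07 and -0.00 in the main scaling on their brightest probe sets. Their other probe sets above the floor ran elsewhere, to 1.07 for NDUFV1 and from -1.50, with signals of 110 and 38.9, to 0.97 for NDUFS1.

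By module, under the main scaling only, the proximal arm had a median of -0.85 with 3 of 7 called lower, the distal arm -0.73 with 3 of 12, the N module -0.36 with 2 of 10, and the Q module -0.04 with 0 of 4. Over all measured genes 14.2% were called lower, and in the members' range of signal 19.1%. The difference between modules was not tested, and the SD between genes within a module reached 0.85 in the distal arm. Assembly factors had a median of -0.10 with 1 called lower and 1 higher, and an SD between genes of 1.14. Over all 4 arrays, 26 of 41 members, or 63.4%, had both CL1-0 signals above both CL1-5 signals, against 35.4% of 16256 genes. For 6 members, or 14.6%, both CL1-5 signals were above both CL1-0 signals, against 44.9%. The 9 members whose lines overlapped included all of the Q module except NDUFS3. These counts are under the main scaling.

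The subunits from mitochondrial DNA were read for ND2, ND4 and ND6, as listed in the annotation. They were higher with AK4 vector too, by 0.70 for ND2, 0.75 and 0.59 for the ND4 probe sets and 1.14 for ND6. ND2, a proton-pumping subunit, read 6985 with control vector and 11369 with AK4 vector, and 3137 and 4200 in CL1-5. Unlike most nuclear members, all of these probe sets were above 0 with AK4 shRNA, by 0.42 for ND2, 0.16 and 0.15 for ND4 and 0.03 for ND6. Between the lines ND2 was at -1.16, ND4 at -0.48 and -0.56 and ND6 at 0.20.

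The other respiratory complexes were near complex I in the vector comparison, with medians of 0.29 for 3 genes of complex II, 0.43 for 7 of complex III, 0.26 for 10 of complex IV and 0.25 for 15 of complex V. With AK4 shRNA their medians were -0.0034, -0.13, -0.02 and -0.02. Between the lines they were 0.80, -0.22, -0.70 and -0.74. COXFA4, the former NDUFA4 that is now placed in complex IV, was at 0.26, 0.03 and -1.16 in the 3 comparisons, and COXFA4L2, the former NDUFA4L2, was dim, at 26.1 to 10.2, with ratios of -0.43, -0.39 and -0.96. Of 9 measured regulators of mitochondrial biogenesis, 7 were above 0 with AK4 vector, with a median of 0.34. PPARGC1B, a coactivator of mitochondrial genes, read 34.5 with control vector and 78.5 with AK4 vector, a ratio of 1.18. TFB1M, a methyltransferase of mitochondrial ribosomal RNA, was at 0.93. NRF1 itself was at 0.01 and the related coactivator PPARGC1A lay below the floor on all 4 arrays. With AK4 shRNA the regulators had a median of -0.03, with 5 of 9 below 0.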

How the data were processed

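RNA of 4 cultures was read on 1-colour Affymetrix arrays. The authors deposited 1 linear intensity per probe set and array. The submitters' processing notes name MAS5, with its version, scaling target and background correction not given in the sources used here. Each array was scaled to a common trimmed mean (2% off each end, without 62 control probe sets), floored at the 40th percentile and put on the log2 scale. A gene was its brightest probe set with 1 symbol. It counted as measured with at least 1 of 2 arrays above the floor and as called at 2-fold. No test was possible with 1 array per group, and this number limits the precision. The members and lists were chosen with earlier results of these data known. Named members were the 5 highest and 5 lowest per comparison, every called one, and those whose probe sets differed in sign by 0.5 or more. NDUFS3, NDUFA9, NDUFB4, NDUFB11 and the extremes of the joint pattern were named after their values were seen. The scaling and ratios were tested on copies of an array with known scale factors and known changes, without noise. The choice of the brightest probe set was not part of that test. NDUFS8, NDUFC2 and NDUFS5 were left out, being read by probe sets with several symbols. Python 3.11.15, pandas 2.3.3 and statsmodels 0.14.6 were used, and 9 alternatives were tried.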

Additional observations from a re-analysis of the deposited data

How the results depend on the processing

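The members' median kept its direction in all 9 alternatives in the vector comparison, at 0.17 to 0.26, and in the shRNA comparison, at -0.10 to -0.04. Between the lines it became 0.59 with the values as deposited. Members above 0 in that comparison were then 31, 20 after loess, 4 with scaling to a common median and 29 of 69 with every probe set on its own, against 12. Those called higher were 9 as deposited, 3 after loess or quantile normalization, 6 of 69 with every probe set and 2 with the mean of probe sets or without _x_at and _s_at probe sets, against 1. Those called lower were 1 as deposited, 18 with scaling to a common median and 5 of 30 without _x_at and _s_at probe sets, against 9. In CL1-0, 0 members were called higher with the mean of probe sets, and 1 with scaling to a common median or without _x_at and _s_at probe sets, against 2, and 1 of 68 was called lower with every probe set, against 0. Without _x_at and _s_at probe sets 21 of 29 were above 0 and the joint count was 16 of 29, against 26. With every probe set 16 of 71 were above 0 with AK4 shRNA, against 8. Fewer genes were measured without _x_at and _s_at probe sets, which lowers the totals. The share above 0 with AK4 vector was lower too, 72.4% against 80.5%. Causes were not tested. Without those probe sets NDUFS7 turned to -0.36 with AK4 vector, and NDUFB1 and NDUFV3 turned to 0.28 and 0.99 between the lines, as a dimmer probe set stood in. Of 653 values of single named members, 597 differed from the main value by less than the scatter between probe sets, 53 by more, and 3 are those just given. The sign changed in 58, of which 33 lay within that scatter. No paired analysis was possible because each group holds 1 array. Of the dim second probe sets, those near 6.94 cannot be told from the floor.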

Other observations

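Complex I genes read only by probe sets with several symbols lay outside the rule and were described separately. NDUFS5, a proximal-arm subunit whose probe set shares RPL10, read 2390 with control vector, 2660 with AK4 vector, and 1016 and 855 on the CL1-5 control and AK4 shRNA arrays. Its log2 ratios were 0.15 with AK4 vector, -0.25 with AK4 shRNA and -1.23 between the lines. NDUFC2, another proximal-arm subunit, read 1334, 1469, 923 and 823 on its brighter probe set in the same order, with ratios of 0.14, -0.17 and -0.53. Its dimmer probe set, at 41.7 and 41.1 in CL1-0, gave -0.02, -0.02 and -0.36. NDUFS8, a core iron-sulfur subunit of the Q module, read 1019, 1170, 762 and 738 on its brightest probe set, with ratios of 0.20, -0.05 and -0.42. A second probe set of NDUFS8 gave 0.18, -0.09 and -1.24, and another, dim one gave 1.36, 0.05 and 1.04. Of these 6 probe sets, all but the dim ones of NDUFC2 and NDUFS8 were higher with AK4 vector and lower with AK4 shRNA. The non-coding NDUFV1-DT, a transcript beside NDUFV1, read 9.02 and 13.1 in CL1-0 and 34.1 and 30.0 in CL1-5.

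COXFA4L3, a relative of COXFA4, was higher in CL1-5, unlike most complex I subunits under the main scaling. It read 12.0 with control vector and 4.46, below the floor, with AK4 vector. In CL1-5 it read 99.5 on the control array and 137 with AK4 shRNA. The ratio between the control arrays was 3.05. GABPA, a subunit of an ETS-family factor of mitochondrial genes, was at -1.39 in that comparison and at 0.39 with AK4 shRNA.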
